A study of Homo sapiens with 2 samples.

Results

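Broad CHD4 domains were the regions of the peak list that extended over 3000 bp or more on chromosomes 1 to 22 and X, whatever their annotation. They were chosen by length alone, as the end of a region minus its start in the list, and 2543 of the 60099 peaks on these chromosomes met the rule. Domains made up 4.23% of the peaks and 20.3% of the bases that peaks covered. The peaks came from 501Mel cells, an established human melanoma cell line grown in RPMI medium with 10% foetal calf serum and carrying no further treatment in the labels. A single CHD4 ChIP library and a single input library were made from chromatin fixed with 0.4% paraformaldehyde, so nothing below has a replicate. Intervals are Wilson intervals at 95% for shares and Newcombe intervals for differences between shares, and they cover counting error only, since neighbouring peaks of 1 library are not independent samples.

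CHD4 is the ATPase of the NuRD complex, which couples nucleosome remodelling to histone deacetylation by HDAC1 and HDAC2. NuRD is recruited by transcription factors to promoters and enhancers, where it shapes nucleosome positions and the acetylation of histone tails. In the melanocyte lineage, MITF and SOX10 are the factors that maintain the pigment cell programme, and both act through remodelling complexes.

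A CpG-dense stretch of 1 long domain is shown as an example and does not stand for the others, whose corresponding stretches are not reported here. For the fourth longest domain, over *SNHG26*, the 200 bases with most CG dinucleotides outside any annotated UTR are shown, on the plus strand of GRCh37, the build named hg19 by the authors, with each CG in capitals. They lay at chr7:22893880-22894079.

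SNHG26 window: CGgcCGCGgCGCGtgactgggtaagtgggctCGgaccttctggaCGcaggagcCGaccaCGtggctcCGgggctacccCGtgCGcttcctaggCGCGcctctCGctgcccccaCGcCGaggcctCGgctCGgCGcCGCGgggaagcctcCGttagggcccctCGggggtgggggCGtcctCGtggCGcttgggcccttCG

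The *SNHG26* window held 28 CG dinucleotides at a GC content of 76.0%, lay wholly within 1000 bp of a transcription start and covered 82 bp of exon.

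Motif matches inside the longest domains are shown next with 20 bases on either side and the match in capitals. For AP-1, the dimer of JUN and FOS proteins, the match nearest the centre is given for the 2 longest domains, at chr5:9447919-9447965 in an intron of *SEMA5A* and at chr3:171509660-171509706 in an intron of *PLD1*. The CTCF match is the only one found in the 15 domains that were longest or highest in fold enrichment. It lay at chr1:117028031-117028082, between annotated genes, in the domain whose nearest protein-coding start is that of *CD58*, and it reads on the minus strand.

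SEMA5A AP-1: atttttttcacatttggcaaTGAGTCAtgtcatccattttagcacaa

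PLD1 AP-1: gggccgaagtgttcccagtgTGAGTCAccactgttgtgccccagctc

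CD58 domain CTCF: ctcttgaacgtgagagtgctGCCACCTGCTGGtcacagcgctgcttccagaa

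Of these 15 domains, 12 held at least 1 AP-1 match. So did 62.4% of all domains and 93.5% of those of 10000 bp or more, and longer regions hold more matches by length alone. 

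Most domains were only a little longer than the minimum. Their median length was 3923 bp, and 1344 of the 2543 were under 4000 bp. A further 571 spanned 5000 bp to under 10000 bp, 46 reached 10000 bp and 4 exceeded 20000 bp, up to 25056 bp. Fold enrichment is the average of the ChIP over the background across the whole region as the authors' peak caller gave it, and it stayed in a narrow band. It had a median of 3.52 and ranged from 2.43 to 6.62, with the middle 80% of domains between 3.11 and 3.96. Across domains, Spearman's rank correlation between length and fold enrichment was 0.165, all points coming from the same library. The median was 3.47 at 3000 to under 5000 bp, 3.62 at 5000 to under 10000 bp and 3.65 at 10000 bp or more, against 3.0 for peaks under 1000 bp. These values belong to the call that defined the domains and are descriptions only. The median −log10 q was 3.04 in domains, and 66 domains (2.60%) reached a −log10 q of at least 5, where 2.23% of peaks of all lengths did. Values on either side of the 3000-bp boundary were close. The 201 domains within 100 bp above it had a median fold enrichment of 3.43 and a GC content of 43.4%, and the 244 peaks within 100 bp below it had 3.50 and 43.7%. The shortest domain, of 3000 bp, lay in intron 1 of *XYLT1*, which encodes a xylosyltransferase, with a fold enrichment of 3.39. The longest peaks outside the rule, both of 2998 bp, lay in a pair of long noncoding RNAs on chromosome 4 and in intron 3 of *RAI14*, with fold enrichments of 3.23 and 3.57.

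**Figure D1:**
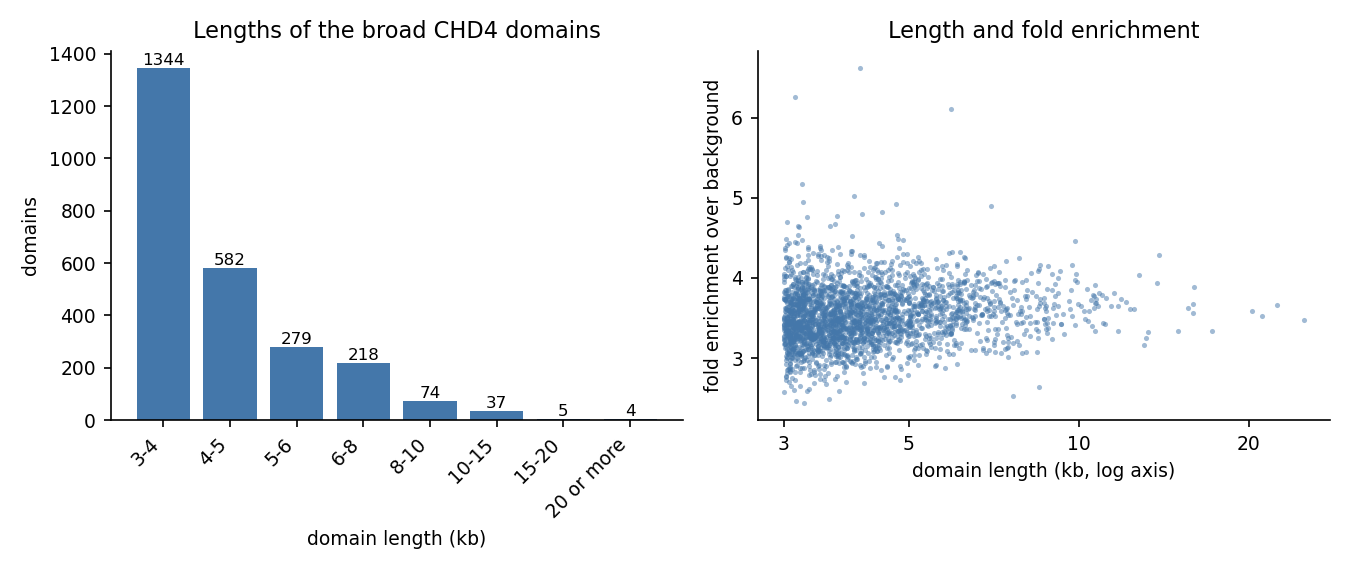
Left, number of broad CHD4 domains (bars) in each class of length in kb. Right, fold enrichment over the background of each of the 2543 domains (points) against its length in kb on a log axis. Most domains are under 5 kb, and the longest ones, up to 25056 bp, have fold enrichments near the median of 3.52.

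The longest domains lay mostly over introns or noncoding DNA with few exon bases, and none of the 10 covered a protein-coding gene start. The longest, at chr5:9433743-9458798, was in *SEMA5A* (ENSG00000112902), which encodes a semaphorin with roles in axon guidance. It extended over 25056 bp, of which 24959 bp were introns 1 and 2 and 97 bp exon 2 of the canonical transcript, with a fold enrichment of 3.48. The second, at chr3:171488951-171511444, lay wholly in intron 1 of *PLD1* (ENSG00000075651), a phospholipase, and spanned 22494 bp at a fold enrichment of 3.66. Both began well downstream of the gene start, 87389 bp into *SEMA5A* and 17296 bp into *PLD1*.

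The third longest domain, of 21131 bp at chr15:58744876-58766006, overlapped *ALDH1A2*, an enzyme of retinoic acid synthesis, and *LIPC*, the hepatic lipase, with a fold enrichment of 3.52. All of it lay outside the canonical transcript of *ALDH1A2*, within that gene's longer annotated extent. The fourth was the only one of the 10 with a large cluster of transcription starts. It spanned 20284 bp at chr7:22876236-22896519 over *SNHG26*, a noncoding host gene of the small nucleolar RNA *SNORD93*, and held 14 starts and 2666 bp of CpG-rich sequence. The remaining 6 ran from 17215 bp, again in *SEMA5A*, to 14977 bp in *ST3GAL6*, a sialyltransferase gene in which the domain covered exons 6 to 9 of 10. Between them were a domain in the noncoding *HULC* locus (15985 bp, fold enrichment 3.89, GC content 36.7%) and domains whose nearest protein-coding starts were those of *RAP2B*, *CD58* and *IVNS1ABP*, at 88909, 79557 and 169037 bp from the domain's centre. GC content over the 10 thus ran from 36.7% to 48.4%.

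The 5 domains of highest fold enrichment were much shorter, from 3149 to 5942 bp, and none covered a protein-coding start. The highest, 6.62 with a −log10 q of 11.9, was at chr22:50775394-50779497, 4287 bp from the start of *PPP6R2*, which encodes a regulatory subunit of protein phosphatase 6. Windows that met the CpG-rich definition given below covered 3139 of its 4104 bp. Even so it held only 49 CG dinucleotides, 11.9 per kb, close to the 11.1 per kb of all domains. The next, 6.26, covered exons 37 to 39 of *DOCK6*, a guanine nucleotide exchange factor gene, at chr19:11319431-11322579. The other three lay between annotated genes, nearest to *TNFRSF19* (6.11), *ENPP6* (5.18) and *MEDAG* (5.02). Only these 5 domains (0.197%) had a fold enrichment of at least 5, against 0.514% of the other peaks.

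Transcription starts were rarer at the centre of domains than at the centre of shorter peaks. Of the 2543 domains, 690 (27.1%, interval 25.4% to 28.9%) overlapped the 1000 bp on either side of a start, and 541 (21.3%) held a start inside. In peaks of 2000 to under 3000 bp these shares were close to those of domains, at 27.7% and 20.6%. In all other peaks together they were 23.02% and 9.94%. Longer regions hold more starts by length alone, and over the central 1000 bp of each region the order of domains and all other peaks turned. This window had the same width for every region, so in peaks under 1000 bp it took in flanking sequence. A start lay in the central 1000 bp of 167 domains (6.57%, interval 5.67% to 7.60%), against 11.5% of peaks of 2000 to under 3000 bp, 14.9% of those of 1000 to under 2000 bp and 12.8% of those under 1000 bp. The difference from all other peaks was -6.60 percentage points (interval -7.54 to -5.53).

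Protein-coding gene starts, taken as the outermost annotated start of a gene, followed the same order. One lay in the central 1000 bp of 25 domains (0.983%), against 5.88% of the other peaks, a difference of -4.90 points (interval -5.27 to -4.40). With the starts of all transcripts of these genes the shares were 3.38% and 10.2%. The share was 1.09% at 3000 to under 5000 bp and 0.701% at 5000 to under 10000 bp, and none of the 46 domains of 10000 bp or more had one there. Within 1000 bp of the whole region, 179 domains (7.04%) met a protein-coding gene start and 365 peaks of 2000 to under 3000 bp (10.0%) did. Such a start lay inside 4.60% of domains, 7.51% of peaks of 2000 to under 3000 bp and 3.97% of all other peaks. The difference of domains from all other peaks had an interval of -0.14 to 1.53 points. The median distance from the centre to the nearest such start was 55379 bp for domains and 36632 bp for the other peaks, and it was 53062, 60985 and 78680 bp in the 3 classes of domain from short to long. Starts of long noncoding RNA genes were in the central 1000 bp of 2.71% of domains and 3.42% of other peaks, and the interval of that difference, -1.29 to 0.01 points, reached 0.

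**Figure D2:**
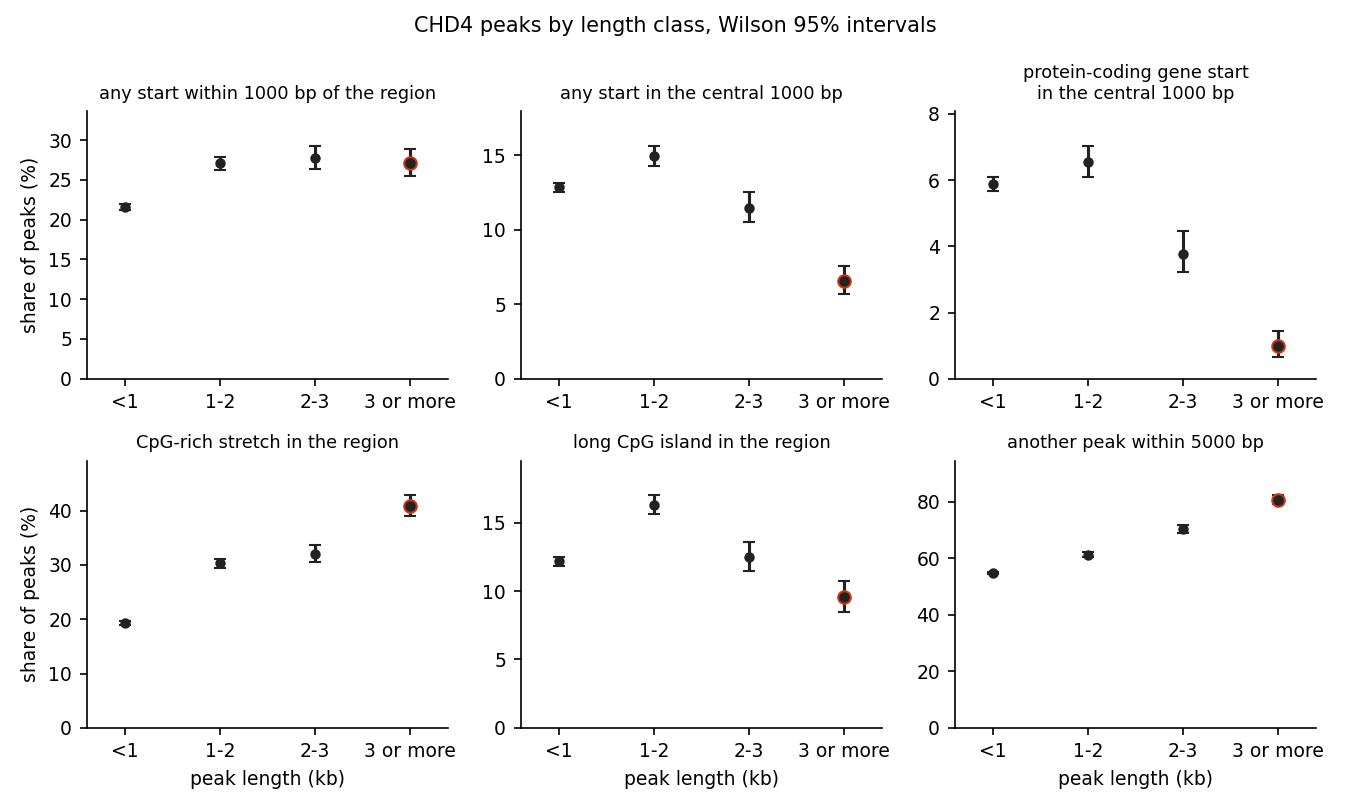
Share of CHD4 peaks (%, from 0) in 4 length classes that meet each of 6 criteria; points are shares, bars Wilson 95% intervals and the red point the domains of 3 kb or more. Starts in the central 1000 bp fall to 6.57% and long CpG islands to 9.56% in domains, while CpG-rich stretches rise to 40.9% and neighbouring peaks to 80.8%.

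Domains over a protein-coding start reached to either side of it. Of the 101 domains over exactly 1 such start, 42 (41.6%, interval 32.5% to 51.3%) were longer on the downstream side, with medians of 2343 bp upstream and 1566 bp downstream. The shares for shorter peaks were 39.3% (interval 33.4% to 45.6%) at 2000 to under 3000 bp, 37.6% (34.3% to 41.0%) at 1000 to under 2000 bp and 35.2% (32.3% to 38.3%) under 1000 bp, and all overlapped that of domains. The longest of these domains, 11566 bp, ran 10613 bp upstream and 952 bp downstream of the start of *SLC1A4*, a neutral amino acid transporter. The opposite layout was seen at *SAMD13*, where 6716 bp lay downstream and 554 bp upstream. Another 16 domains held 2 or more protein-coding starts and 2 of them held 3. One of the latter, of 3012 bp at chr11:58344426-58347437, covered those of *LPXN*, *ZFP91* and *ZFP91-CNTF*, with CpG-rich sequence over 2322 bp and a fold enrichment of 4.37.

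By bases, domains were intronic and intergenic sequence with less promoter than shorter peaks. Introns made up 60.2% of domain bases, sequence between genes 33.1% and exons 6.64%. The corresponding shares were 59.5%, 31.4% and 9.12% in the other peaks and 56.8%, 37.8% and 5.49% over chromosomes 1 to 22 and X. Bases within 1000 bp of a start were 11.0% of domains and 19.8% of other peaks, with 7.52% in the genome, and the share was 12.3%, 8.98% and 8.91% in the 3 classes of domain from short to long. No exon base was covered by 1572 domains (61.8%), 1228 (48.3%) overlapped no protein-coding gene, and 1151 (45.3%) lay wholly inside a protein-coding gene body. These counts depend on region length, and no like share is given for other peaks. The centre of the region lay in an intron for 60.3% of domains and 59.2% of other peaks. It lay between genes for 33.1% and 31.8%, and in an exon for 6.57% and 9.01%.

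CpG content separated domains from shorter peaks in a direction that depended on the definition. GC content was 42.9% over domains, 44.8% over other peaks and 40.9% over the genome. CG dinucleotides occurred 11.1 times per kb in domains, 14.9 in other peaks and 9.87 in the genome. A CpG-rich stretch, defined as 200 bp of at least 50% GC with an observed to expected CG ratio of at least 0.6, was present in 1039 domains (40.9%) and in 22.3% of other peaks. Over the central 1000 bp, however, it was present in 18.4% of domains and 28.0% of other peaks, a difference of -9.61 points (interval -11.1 to -8.01). In peaks under 1000 bp that window reached into the flanks, with 28.7% in the window and 19.3% in the peak itself. In peaks of 2000 to under 3000 bp the central share was 22.6%. A long island, of 500 bp at 55% GC and a ratio of 0.65, was also less frequent in domains, with 243 of them (9.56%) against 13.0% of other peaks. High-copy sequence was taken as bases covered by a 14-base word that occurs at least 10000 times on chromosomes 1 to 22 and X. It made up 29.5% of the CpG-rich bases in domains, 13.2% of those in other peaks and 36.6% of those in the genome. In long islands it made up 7.85%, 4.27% and 8.35%. Over whole domains high-copy bases were 9.40%, compared with 7.43% in other peaks and 12.1% in the genome, and the share grew from 6.84% under 1000 bp to 10.2% at 10000 bp or more. What part the single best mapping position of each read has in these shares was not tested.

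The rate of AP-1 matches per kb in domains was close to that in shorter peaks, and CTCF matches were fewer. The AP-1 letters searched were TGACTCA and TGAGTCA, which read the same on either strand as a pair. Domains held 2609 matches, 0.229 per kb, and the ratio to other peaks was 0.998 (interval 0.956 to 1.04, counting error only). The ratio to chromosomes 1 to 22 and X was 1.42 (1.37 to 1.48). In the central 500 bp an AP-1 match was present in 295 domains (11.6%), 10.8% of other peaks and 7.56% of all windows of that length, and the difference from other peaks had an interval of -0.39 to 2.15 points. The CTCF consensus, searched on both strands, was present in the central 500 bp of 9 domains (0.354%) and of 888 other peaks (1.54%), a difference of -1.19 points (-1.39 to -0.86). For every motif this window had a fixed width, and in peaks shorter than 500 bp it took in flanking sequence. The median peak under 1000 bp was 453 bp long. For CTCF, 840 other peaks held a match within their own bounds. The central share was 0.329% in peaks of 2000 to under 3000 bp, close to that of domains. Per kb, the CTCF ratio to other peaks was 0.351 (0.278 to 0.444) and to the genome 1.72 (1.38 to 2.16). CTCF is the insulator protein found at loop anchors.

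The promoter-type motifs were likewise fewer at the centre of domains than at that of all other peaks together. The GC box (GGGCGG, bound by SP and KLF factors) was present in 8.93% of domain centres and 13.6% of the others (difference -4.66 points, -5.75 to -3.46), and in 6.56% of all windows. The ETS motif (CCGGAAGT) was in 0.393% of domains and 0.867% of other peaks (difference -0.47 points, -0.67 to -0.14). It was found in 0.238% of all windows. For the motifs of the melanocyte factors the differences were smaller than their intervals. The E-box of the MITF type (CACGTG or CATGTG) was in 40.3% of domains and 38.7% of other peaks, with an interval of the difference from -0.33 to 3.56 points and 31.8% in all windows. The SOX motif (ACAAAG or ACAATG) was in 54.8%, 54.2% and 53.6%. The motifs were searched on both strands, and a match describes the letters and not binding.

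Domains lay close to other CHD4 peaks. Another peak was within 5000 bp of 2054 domains (80.8%, interval 79.2% to 82.3%), against 70.3%, 61.3% and 54.8% in the classes of 2000 to under 3000 bp, 1000 to under 2000 bp and under 1000 bp. The median gap to the next peak was 1276 bp for domains, 733.5 bp for those of 10000 bp or more and 3549 bp for other peaks. Gaps of this size come from the same call that set the lengths. Another domain lay within 10000 bp of 577 domains (22.7%) and within 50000 bp of 1118 (44%). No like share is given for other peaks, so these counts do not show whether domains lay closer together than peaks in general.

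Their density differed widely between chromosomes. It was highest on chromosome 22 with 1.86 domains per sequenced Mb, followed by chromosome 1 with 1.5, and it was 1.34 on chromosomes 6, 17 and 20. Chromosome 14 had 0.294 per Mb (26 domains), chromosome 18 had 0.174 (13 domains) and chromosome X had 0.0728 (11 domains). Peaks of all lengths ranged from 43.5 per Mb on chromosome 19 to 4.94 on chromosome X. The ratio of highest to lowest was 25.6 for domains (interval 13.5 to 48.5, counting error only) and 8.79 for peaks of all lengths. The chromosomes of each ratio were picked as highest and lowest from the same counts, and the interval does not cover that choice. Domains as a share of a chromosome's peaks ran from 1.47% on X and 1.77% on chromosome 18 to 5.31% on chromosome 2. The copy number of each chromosome in 501Mel was not analysed here, and its part in these densities was not tested.

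**Figure D3:**
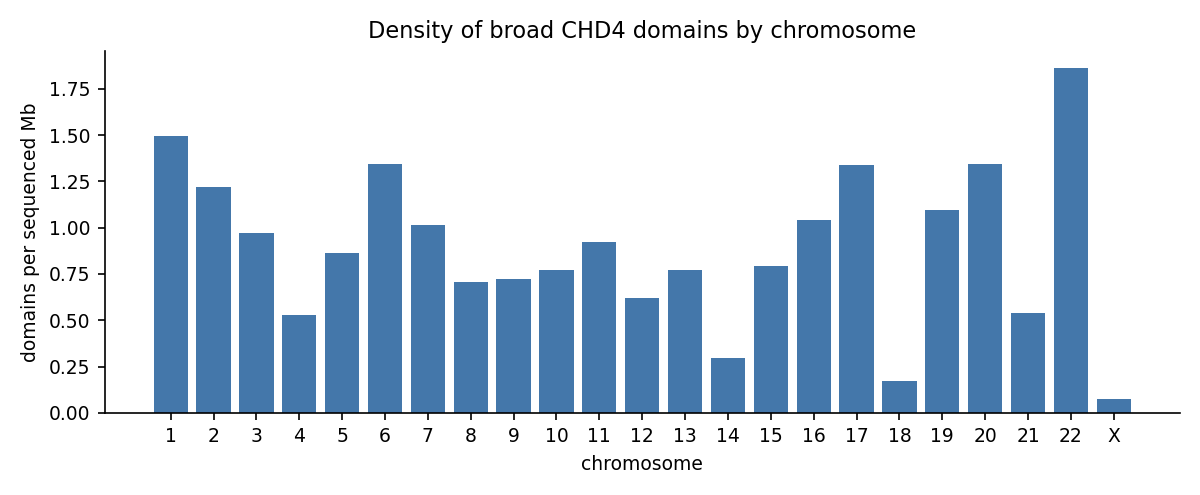
Broad CHD4 domains per sequenced Mb (bars, from 0) on each of chromosomes 1 to 22 and X. Chromosome 22 is highest at 1.86 per Mb and chromosome X lowest at 0.0728.

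Some genes held many domains and most held none. A protein-coding gene was counted as having a domain if 1 lay over its body or within the 2000 bp upstream, and 1099 of 20098 genes (5.47%) had one, whereas 11753 (58.5%) had a peak of any length. The annotated extent of a gene can run far beyond its main transcript, and with the extent of the Ensembl canonical transcript in its place 963 genes (4.79%) had a domain. Of 18592 long noncoding RNA genes, 630 (3.39%) had a domain. Gene length bore on this directly, the share rising from 1.29% in the shortest of 4 equal classes of gene length to 13.7% in the longest. Most genes with a domain had 1 (854), 155 had 2 and 15 had 5 or more.

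*SEMA5A* had the most, with 13 domains among 95 peaks over its 511043 bp on chromosome 5. Domains covered 20.9% of the gene and peaks of all lengths 35%. They ran from 3086 to 25056 bp in length and from 2.73 to 3.75 in fold enrichment, and the first began 87389 bp downstream of the gene start. The last ended 493929 bp from it, in intron 19 of a transcript of 23 exons. None covered the start of the gene. *BCAS3*, which encodes a cytoskeleton-associated protein, followed with 7 domains over 715386 bp, the longest of 11149 bp. *PLCB4* (a phospholipase C), *SUGCT* (a mitochondrial CoA transferase), *TRIO* (a guanine nucleotide exchange factor) and *PDE4B* (a cAMP phosphodiesterase) had 6 each. In these 5 genes domains covered between 3.42% and 6.53% of the gene, well below the share in *SEMA5A*.

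**Figure D4:**
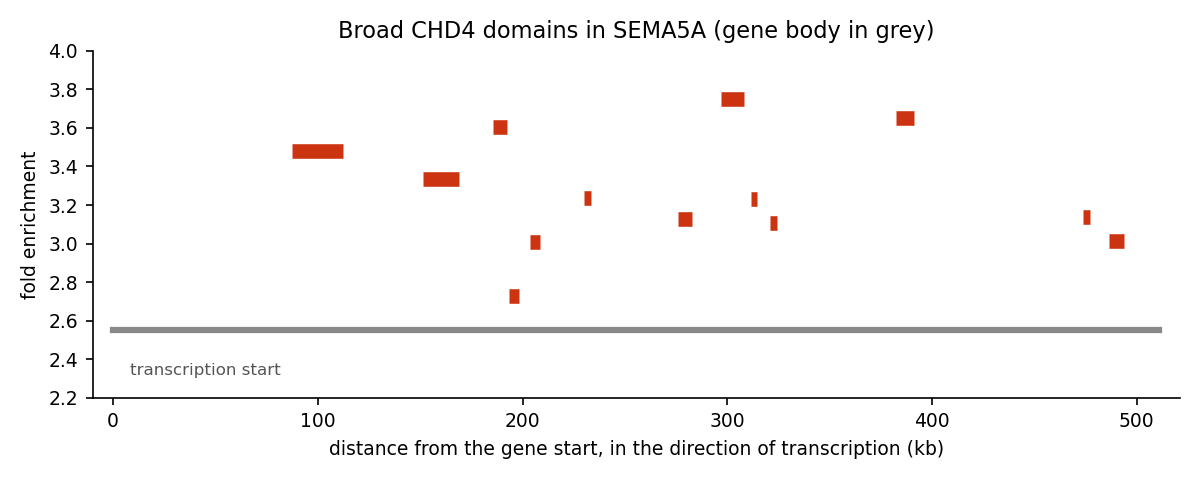
Fold enrichment (y axis, from 2.2 to 4) of each of the 13 broad CHD4 domains in *SEMA5A* against distance from the gene start in kb in the direction of transcription; each red bar spans the extent of a domain. The domains run from 87389 to 493929 bp from the start, between 2.73 and 3.75 in fold enrichment.

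Genes of the melanocyte lineage list carried domains more often than protein-coding genes as a whole. The list was chosen with earlier results of these data known. All 24 of its genes had a peak, beside 58.5% of all protein-coding genes. A domain was found at 9 (37.5%, interval 21.2% to 57.3%), beside 5.47% of all protein-coding genes. With canonical transcripts it was 7 (29.2%, interval 14.9% to 49.2%) beside 4.79%, *TYRP1* and *PMEL* dropping out. The median gene of the list spanned 51912 bp against 27256.5 bp for all protein-coding genes. By class of gene length, from shortest to longest, the counts were 0 of 1, 4 of 8, 1 of 5 and 4 of 10. In these classes 1.29%, 2.61%, 4.26% and 13.7% of all genes had one. *MITF*, the lineage's master regulator, had 4 domains in introns 1 and 2 of its canonical transcript, of 3204 to 5107 bp and with fold enrichments of 3.2 to 3.57. The 2 furthest downstream, at chr3:69970346-69973549 and chr3:69974254-69979336, lay next to each other. *SOX10* had 2, of which one at chr22:38380667-38383776 ran from -3214 to -105 bp relative to the start of the canonical transcript and the other, of 6861 bp, ran over the last exon to beyond the gene. *PAX3*, a further neural crest factor, had 1 of 3991 bp in intron 4.

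*KIT*, the receptor of stem cell factor, had a domain of 7558 bp around exon 7, with a fold enrichment of 3.83. *LEF1*, a nuclear effector of WNT signalling, had 1 of 3429 bp in intron 3. Among the pigment genes, the domain of *TYRP1*, a melanosomal enzyme, was of 6093 bp and covered the outermost annotated start, but lay from -13697 to -7605 bp relative to the canonical start. That of *PMEL*, the melanosome matrix protein, was of 3006 bp with a fold enrichment of 3.99 and lay from -7427 to -4422 bp relative to the canonical start. *MLANA* had 1 of 5109 bp in introns 2 and 3, and *RAB38*, a small GTPase of melanosome biogenesis, had 1 of 4223 bp around exon 2. A domain was within 1000 bp of the outermost start in 3 of the 24 genes and of the canonical start in 1, *SOX10*, and at a minimum length of 2000 bp 17 had one. Among all 20098 protein-coding genes the corresponding counts were 203, 187 and 2531.

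The lists of MAPK output genes and of SWI/SNF subunits also had intervals above 5.47%. The median gene spanned 12243 bp in the MAPK list and 46795 bp in the SWI/SNF list, against 27256.5 bp for all protein-coding genes. These lists were not split by gene length. Of 20 genes of MAPK output and feedback, 5 (25%, interval 11.2% to 46.9%) had a domain, among them the ETS factors *ETV5* with 3, *ETV1* with 2 and *ETV4* with 1. The *ETV5* domains of 5762, 3337 and 3619 bp followed each other in introns 5 to 7. The phosphatase gene *DUSP6*, a feedback inhibitor of ERK, and the immediate early gene *IER2* had 1 each. Among 22 SWI/SNF subunits 5 (22.7%, interval 10.1% to 43.4%) had one. Of these, 4 had it within 1000 bp of the gene start, as did 203 of all 20098 protein-coding genes. With canonical transcripts 4 SWI/SNF genes had one (18.2%, interval 7.31% to 38.5%), while the MAPK list had 5. The domain of *ACTL6A* covered the canonical start, and those of *ARID1A*, *ARID1B* and *SMARCD2* ended upstream of it, at -100, -595 and -507 bp. The domain of *BRD9*, with a −log10 q of 6.63, lay outside the canonical transcript.

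The other lists are given by their counts. None of 15 NuRD subunits, 14 AP-1 genes, 19 glycolysis genes, 5 peptidylarginine deiminases, 84 ribosomal protein genes or 53 clustered protocadherins had one, although 13, 13, 13, 4, 60 and 22 of them had a peak. With lists of this size only the ribosomal protein list had an upper bound, 4.37%, below 5.47%. The chromosome 19 ZNF list was lower as well, with 2 of 246 genes (0.813%, interval 0.223% to 2.92%), *ZNF524* and *ZNF865*. The median gene spanned 5441 bp in the ribosomal protein list and 25819 bp in the ZNF list. These medians lie in the shortest and the second class of gene length, where 1.29% and 2.61% of all genes had a domain. Neither list was split by gene length. The invasive and neural crest list had 3 of 19 (15.8%, interval 5.52% to 37.6%), among them the EMT factors *ZEB2* and *TWIST1* with 2 domains each. Both *TWIST1* domains lay outside the canonical transcript, 20839 to 40236 bp from its start, and with canonical transcripts the list had 2 of 19 (10.5%, interval 2.94% to 31.4%). The Polycomb list had 2 of 21, *JARID2* with 4 intronic domains of 3385 to 3835 bp and *PHC2* with 1, and the cell cycle list 2 of 22, *RB1* and *CDK6* (9.52% and 9.09%). Both *RB1* domains lay outside the canonical transcript, at least 232617 bp from its start, and count only through the longer annotated extent.

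Adhesion and guidance genes include many long genes, with a median of 105440 bp for integrin and collagen genes. Domains were found at 9 of 67 integrin and collagen genes (13.4%, interval 7.23% to 23.6%; *ITGB3BP*, matched by its name, is not an integrin), led by *ITGA9* with 5, the longest of 8836 bp around exon 16. Of 51 semaphorin, ephrin and plexin genes, 6 (11.8%, interval 5.51% to 23.4%) had one, among them *SEMA5A*, *EPHA3*, an ephrin receptor, with 5, *PLXNC1* with 2 and *SEMA3C* with 1 of 7224 bp. With canonical transcripts the counts were 8 (11.9%, interval 6.18% to 21.8%) and 5 (9.80%, interval 4.26% to 21.0%), beside 4.79%. Of 89 forkhead, SOX, KLF and GATA genes 4 had one, all SOX genes, and 3 did with canonical transcripts. *SOX6* had 4 domains, and one of these, at chr11:15988797-15992799, was 4003 bp of exon 16 alone, the last exon. HOX genes had 2 of 39 (5.13%), both through 1 domain of 3085 bp that lay outside their canonical transcripts. Core histone genes had 4 of 68 (5.88%, and 3 with canonical transcripts) through 3 domains in the chromosome 6 cluster. *NEAT1*, the RNA scaffold of paraspeckles, was the only 1 of 8 nuclear long noncoding RNA genes with a domain, which ran from -4786 to -122 bp relative to the canonical start.

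**Figure D5:**
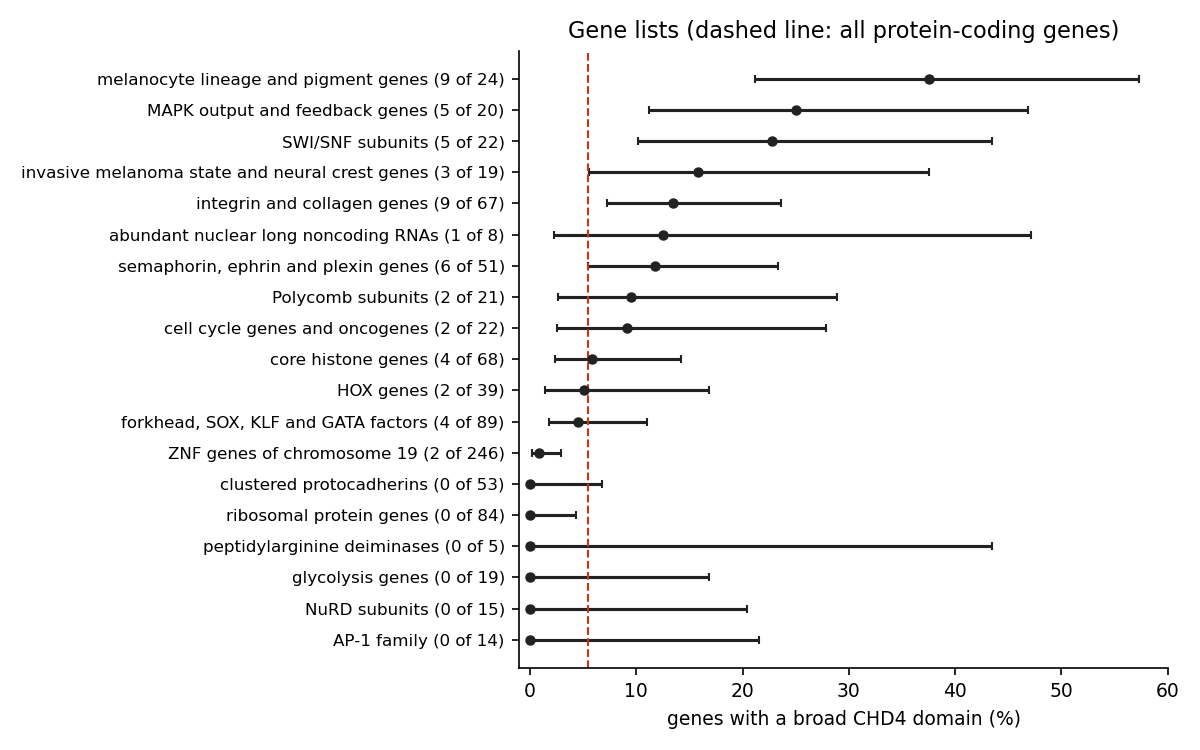
Share of the genes of each list with a broad CHD4 domain (points, % on the x axis) with Wilson 95% intervals; the dashed line is the 5.47% of all protein-coding genes, and labels give counts. The melanocyte list is highest at 37.5%, and 6 lists are at 0.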

How the data were processed

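CHD4 ChIP-seq of 501Mel cells was taken from the authors' deposited list of broad peaks, made from 1 CHD4 ChIP library with 1 input library sequenced beside it. Per the labels, reads were demultiplexed with bcl2fastq 2.17.1.14, mapped to hg19 with Bowtie 1.0.0 and broad peaks called with MACS2 2.1.1.20160309. The paper's methods and the labels name different library kits, and neither says whether the input served as control for peak calling. For each region the deposited list gives start and end positions, the authors' score, the authors' fold enrichment over the background (a ratio), and the −log10 p-value and −log10 q-value of the peak caller, with no counts, so that the depth behind a value is unknown here. On the chromosomes used, −log10 q ran from 1.00 upwards with a median of 1.97 over all peaks. What part the cutoffs of the peak caller have in the length of a domain was not tested. The score was not used further.

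Positions were counted from 1 and compared with GRCh37, whose 23 chromosome sizes no region exceeded, and with GENCODE release 44 mapped to that build, which is not the annotation of the authors. The 27 regions outside chromosomes 1 to 22 and X were left out, 3 of them of 3000 bp or more. An overlap of 1 bp counted. CpG-rich stretches, motifs and 14-base words were computed from the sequence. With 1 library of each kind no test was possible and none was made. Columns of per-sample values that were not used numbered 0.

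Named domains are the 10 longest, the 5 of highest fold enrichment, those nearest the length minimum, those at genes of the lists (up to 8 genes per list by domain length), and the genes or domains with most domains or starts, up to 5 and 3. *SLC1A4* and *SAMD13* were chosen after their values were seen. Of the names on the lists, *CYR61* was not matched. The members, the lists and the tests were chosen with earlier results of these data known. Functions were tested on simulated data. Alternatives covered the length minimum, the q threshold, joined peaks, windows, island definitions and gene rules. Calculations ran in Python 3.11.15 on pandas 2.3.3 and numpy 2.4.6, with figures from matplotlib 3.10.9. Some named items and sequences are not reported here.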

Additional observations from a re-analysis of the deposited data

How the results depend on the processing

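Of 50 alternatives, 12 left a value within its interval or within 1.5 times and 38 moved it. The AP-1 ratio lay on either side of 1, and the cause was not tested. With a minimum of 2000 bp there were 6191 domains, of which 35.7% held a CpG-rich stretch, GC content was 43.4%, 2531 protein-coding genes and 17 of the 24 melanocyte genes had a domain, and 74.6% had another peak within 5000 bp. With a minimum of 5000 bp there were 617, of which 29.5% were at a start and 48.8% held a CpG-rich stretch. At this minimum GC content was 42.6%, the AP-1 ratio 0.934, the CTCF ratio 0.202, 90.1% had a peak nearby and 25.9% of those over 1 start were longer downstream. With a −log10 q of at least 5 there were 66, with a CpG-rich stretch in 57.6%, a GC content of 47.6%, an AP-1 ratio of 1.30, a peak nearby for 87.9% and a longer downstream side for 3 of the 4 domains over 1 start (75%). Joining peaks within 1000 bp first gave 4260 domains, 31.1% at a start and 45.9% with a CpG-rich stretch, and the last 2 values were added after seeing the data.

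The share at a start was 25% with 500 bp on either side, 43.7% with 5000 bp, 7.04% for protein-coding gene starts and 6.57% in the central 1000 bp. CpG-rich stretches were in 18.4% of central windows, and long islands in 9.56% of domains. Introns of protein-coding genes alone made up 43.7% of domain bases. In the central 500 bp the AP-1 ratio was 1.07 and the CTCF ratio 0.228, and with no start within 1000 bp, added after seeing the data, the AP-1 ratio was 0.942. The ratio between chromosomes was 3.61 for shares of peaks and 8.79 for peaks of all lengths, the latter added after seeing the data, and it was 14.7 at a minimum of 2000 bp, inside its wide interval. With canonical transcripts, also added later, 963 genes and 7 melanocyte genes had a domain. Within 1000 bp of a gene start, 203 genes and 3 melanocyte genes had a domain, and 94.6% of domains had a peak within 20000 bp. High-copy sequence was also examined after seeing the data.

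No paired analysis was possible because each group has 1 library. With no counts in the list, how far depth set the length of a domain was not tested. Regions broken by short gaps count as separate peaks, so the number of domains depends on the joining distance.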

Other observations

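Domains were also dense around several noncoding genes and in some stretches of the genome. *MIR3681HG*, a microRNA host gene on chromosome 2, held 8 domains of 3510 to 9276 bp. *TEX41*, *HULC* and *CCDC26* held 7 each, the longest of 10562, 15985 and 11432 bp, and in *TEX41* domains covered 8.33% of the gene. *LINC03002* on chromosome 6 held 5 domains over 14.0% of its 169237 bp, the highest share among these noncoding genes. Fold enrichment within these genes ran from 2.76 to 4.80.

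Of 1530 windows of 2 Mb, 840 held a domain, and 27 with 10 or more held 318 domains, or 12.5% of them. Both windows with the most, 17 each, were the one at 94000001 to 96000000 on chromosome 1 and the one at 26000001 to 28000000 on chromosome 6, which holds histone genes. The window at 8000001 to 10000000 on chromosome 5, with *SEMA5A*, held 16 domains and had the most domain bases of the densest 4, 131086 bp.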
